A study of Mus musculus with 50 samples.

Results

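The chemokine ligands are the secreted and membrane-tethered proteins that guide leukocytes, and they were taken as every gene whose symbol is Ccl or Cxcl followed by a number, with Cx3cl1 and Xcl1 added. The rule found 39 genes, all of them present in each of the 3 count tables, out of 55401 gene rows in the table that gave the symbols. By RefSeq position 12 of the 39 lie on chromosome 11 and 11 on chromosome 5, the chromosomes of the known CC and CXC clusters. The 12 include Cxcl16, and the 11 include Ccl24 and Ccl26, so not every gene there belongs to its chromosome's cluster. The libraries came from 3′ mRNA sequencing, which counts the 3′ ends of polyadenylated transcripts, in male mice carrying hM3DGq, an engineered receptor that lets clozapine N-oxide (CNO) switch on neurons. TG mice were positive for Gfral Cre, Gfral being the receptor of the hormone GDF15 found in hindbrain neurons, and WT mice were Cre-negative. Both genotypes received CNO at 1 mg/kg and no group without CNO is among these libraries, so each comparison is of Cre-positive with Cre-negative mice. The sets were quadriceps muscle of mice labelled as clamped (10 TG, 10 WT) and perigonadal white adipose tissue, pgWAT, taken 1 h (9 TG, 9 WT) or 6 h (6 TG, 6 WT) after CNO. The labels number the replicates without stating that each is a separate mouse, and the p-values cover the spread among these libraries, which may be technical.

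Chemokines bind G protein-coupled receptors on leukocytes, and the receptor decides which cells respond: CCR2 ligands draw monocytes, CXCR2 ligands neutrophils, CXCR3 ligands activated T and NK cells, and CCR7 ligands dendritic and naive T cells. Many are induced by inflammatory cytokines, while others such as Cxcl12 and Cxcl14 are made steadily by stromal cells. In adipose tissue, Ccl2 is best known for the monocytes it brings in obesity.

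The quadriceps libraries held 959980 to 2613672 gene counts, the 1 h libraries 976610 to 4852560 and the 6 h libraries 9150496 to 12883462. Levels are given in CPM, the gene's share of a library's counts after TMM scaling; since reads start at the 3′ end, CPM is used as the level without dividing by gene length. A count of 0 allows up to 3 counts, or 1.03 to 3.30 CPM per quadriceps library, 0.596 to 3.36 CPM per 1 h library and 0.241 to 0.353 CPM per 6 h library, for counting error only. The markers matched the tissue labels: summed myofibre markers were 60680 to 71930 CPM in TG and 44720 to 85660 CPM in WT quadriceps, and at most 84.0 CPM in TG and 59.7 CPM in WT pgWAT at 1 h, where adipocyte markers summed to 10900 to 21320 CPM in TG and 9236 to 19250 CPM in WT. Liver, duct epithelium or inducible heat shock transcripts were over 10 times the median of the set in 3 TG and 2 WT libraries at 1 h, in TG library 2 at 6 h and in WT libraries 2 and 10 of quadriceps. The fits without these libraries are given where they change a call. Molecular identifiers were added to the quadriceps and 1 h libraries but not at 6 h, so that kit and depth change with time in pgWAT. In whole tissue, fewer cells of a type and less RNA per cell cannot be told apart.

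At least 1 count was found for 29 of the 39 ligands in quadriceps, and for 32 in pgWAT at either time. After thinning of every library to 959980 counts, 27 were detected in quadriceps, 31 in the 1 h set and 32 in the 6 h set. With a stricter limit, a mean of 1 CPM and a count in at least 50% of the libraries, 14 were detected in quadriceps, 25 in the 1 h set and 24 in the 6 h set. The same 28 ligands had a count in all 3 sets, and 4 had counts in pgWAT only. Ccl26, Ccl21b, Ccl21d, Ccl27b, Cxcl15 and Cxcl17 had none in any library, which over a whole set allows up to 0.120 CPM in the quadriceps set, 0.0826 CPM in the 1 h set and 0.0224 CPM in the 6 h set. Ccl21b and Ccl21d are near-identical copies of Ccl21a, and Ccl27b of Ccl27a, so reads of these copies cannot be told apart and the counts of Ccl21a and Ccl27a are uncertain in the same way.

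Different ligands were the most abundant in muscle and in fat. These levels are set side by side with no test, since tissue, kit and depth change together. In quadriceps the highest was Cxcl14, a stromal chemokine, at 103 ± 19.4 CPM in TG and 93.1 ± 16.1 CPM in WT (SD, n = 10 each), followed by Ccl6 and Cxcl12. In pgWAT at 1 h the CCR1 ligand Ccl6, which macrophages make, led with 300 ± 95.02 CPM in TG and 287 ± 117 CPM in WT (n = 9 each), followed by Cxcl12 and Ccl9. Cxcl14 had only 11.6 ± 4.08 CPM in TG and 12.4 ± 6.51 CPM in WT pgWAT at 1 h, and 7.93 ± 3.79 CPM in TG and 4.83 ± 1.11 CPM in WT at 6 h (n = 6 each). Cxcl9, a CXCR3 ligand induced by interferon gamma, had 49.7 ± 15.8 CPM in TG and 47.4 ± 13.97 CPM in WT pgWAT at 1 h, against 0.680 ± 0.652 CPM in TG and 1.03 ± 1.01 CPM in WT quadriceps. Ccl11, an eotaxin that draws eosinophils, had 80.1 ± 17.5 CPM in TG and 85.6 ± 11.6 CPM in WT pgWAT at 6 h, and 12.0 ± 5.79 CPM in TG and 17.7 ± 14.1 CPM in WT at 1 h. The map of mean levels shows Ccl6, Ccl9 and Cxcl12 among the brighter rows in every column, and the CXCR2 ligands low in all.

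**Figure D1:**
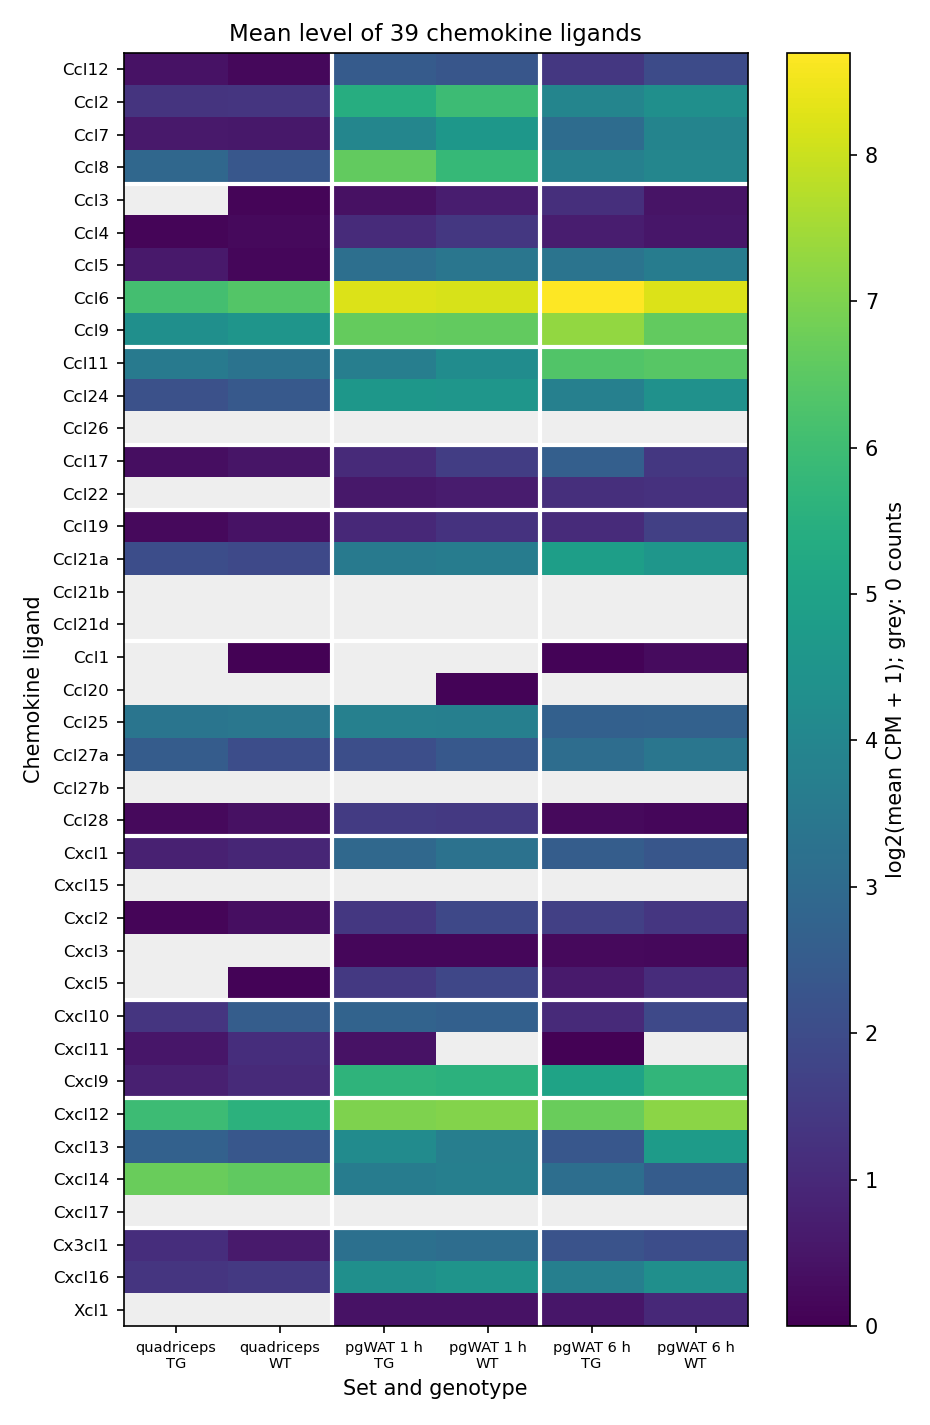
Mean level of each of the 39 chemokine ligands, as log2(mean CPM + 1), with TG left of WT within quadriceps, pgWAT 1 h and pgWAT 6 h; white lines separate ligand groups by receptor, and grey marks 0 counts. Cxcl14 was brighter in quadriceps (103 CPM in TG) than in pgWAT at 6 h (7.93 CPM in TG), and 6 ligands are grey throughout.

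At 6 h after CNO, TG adipose tissue had more of the CCR1 ligands Ccl6 and Ccl9 and less of Cxcl12 and Cxcl9 than WT. These were the ligands past the threshold of 0.05 on the adjusted p (edgeR quasi-likelihood test, Benjamini-Hochberg over all 14359 tested genes), 2 higher and 2 lower of 24 tested. Over all genes 14.4% passed in either direction, 6.88% higher and 7.54% lower, and 16.7% of the tested ligands passed, a share close to that of all genes. The median log2 change of TG over WT was -0.28 over the 24 ligands and 0.0016 over all tested genes, with 8 ligands above 0 and 16 below. Unadjusted p was under 0.05 for 10 of the 24, against 26.6% of all genes. The ranges of the groups did not overlap for 0 of the 24 ligands, against 7.66% of all genes. All 24 varied between libraries of a genotype more than the median gene did (median biological coefficient of variation 0.445 against 0.153).

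Ccl6 and Ccl9 are CCR1 ligands of rodents, made mainly by macrophages and myeloid cells, and are neighbours on chromosome 11. Ccl6 ran from 316 to 581 CPM in the TG libraries with a median of 406 CPM, against 265 to 393 CPM in the WT libraries with a median of 289.9 CPM. TG libraries 3 and 6 lay within the WT range and the other 4 lay above it. Its means were 413 ± 92.4 CPM in TG and 301 ± 46.8 CPM in WT, a log2 change of 0.46 (SE 0.14, adjusted p = 0.0358). Ccl9 ran from 110.0 to 231 CPM in TG with a median of 134 CPM, against 80.9 to 119 CPM in WT with a median of 95.2 CPM. All TG libraries but number 3 lay above every WT library. Its means were 155 ± 48.5 CPM in TG and 97.2 ± 16.6 CPM in WT, a log2 change of 0.68 (SE 0.19, adjusted p = 0.0327). Both genes were highest in TG library 1, whose summed macrophage markers were also the highest. Those markers summed to 1563 to 2657 CPM in TG and 1341 to 1831 CPM in WT. Of the 12, 2 passed as higher, Cd163 and Lyve1, and none as lower, against 6.88% and 7.54% of all genes. The log2 change was above 0 for 6 of the 12, with a median of 0.022. TG library 5 was next highest in both genes, with 427 CPM of Ccl6 and 200 CPM of Ccl9. Its macrophage markers, at 1678 CPM, lay within the WT range. The part of these markers in the change of Ccl6 and Ccl9 was not tested. Without TG library 1 both genes still passed (adjusted p = 0.0369 for Ccl6 and 0.0444 for Ccl9).

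Cxcl12, the ligand of CXCR4 and ACKR3 that holds haematopoietic and immune cells in place, ran from 82.2 to 134 CPM in TG with a median of 101 CPM, against 106 to 186 CPM in WT with a median of 147 CPM. TG libraries 1 and 2 lay within the WT range and the other 4 lay below it. The means were 103 ± 17.3 CPM in TG and 143 ± 27.1 CPM in WT, a log2 change of -0.47 (SE 0.13, adjusted p = 0.0256). Cxcl9 ran from 22.9 to 48.5 CPM in TG with a median of 25.7 CPM, against 44.4 to 63.5 CPM in WT with a median of 52.9 CPM. Its TG libraries 3 and 5 lay within the WT range, at 46.8 and 48.5 CPM, and the other 4 lay at 26.8 CPM or below. The means were 32.3 ± 12.0 CPM in TG and 52.4 ± 6.99 CPM in WT, a log2 change of -0.71 (SE 0.20, adjusted p = 0.0353). T and NK cells carry the receptor of Cxcl9. Of 12 T and NK cell markers 7 were tested. Of those 7, Trbc2 and Nkg7 passed as lower and none as higher, against 7.54% and 6.88% of all genes. The 12 summed to 10.1 to 25.9 CPM in TG and 18.6 to 41.1 CPM in WT. Myofibre markers, traces in this tissue, summed to 61.6 to 119 CPM in TG and 21.04 to 50.4 CPM in WT. The part of either list in these changes was not tested.

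Each of the 4 calls was lost in some of the fits that left out 1 library, although each kept its direction. Ccl6 passed no longer without WT library 2, 3, 4, 5 or 6 or TG library 2, 4 or 5 (adjusted p 0.0536 to 0.0818), and Ccl9 no longer without WT library 2, 3, 4 or 5 or TG library 5 (0.0537 to 0.0755). Cxcl12 did so without WT library 1, 2 or 6 or TG library 3, 5 or 6 (0.0503 to 0.0589), and Cxcl9 without WT library 2, 4, 5 or 6 or TG library 1, 2, 4 or 6 (0.0651 to 0.0754). With no filter on low counts no ligand passed in edgeR (11 with unadjusted p under 0.05, smallest adjusted p 0.0728), while DESeq2 called 6. With the replicate number as a block, Cxcl9 also passed no longer (adjusted p = 0.0538).

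**Figure D2:**
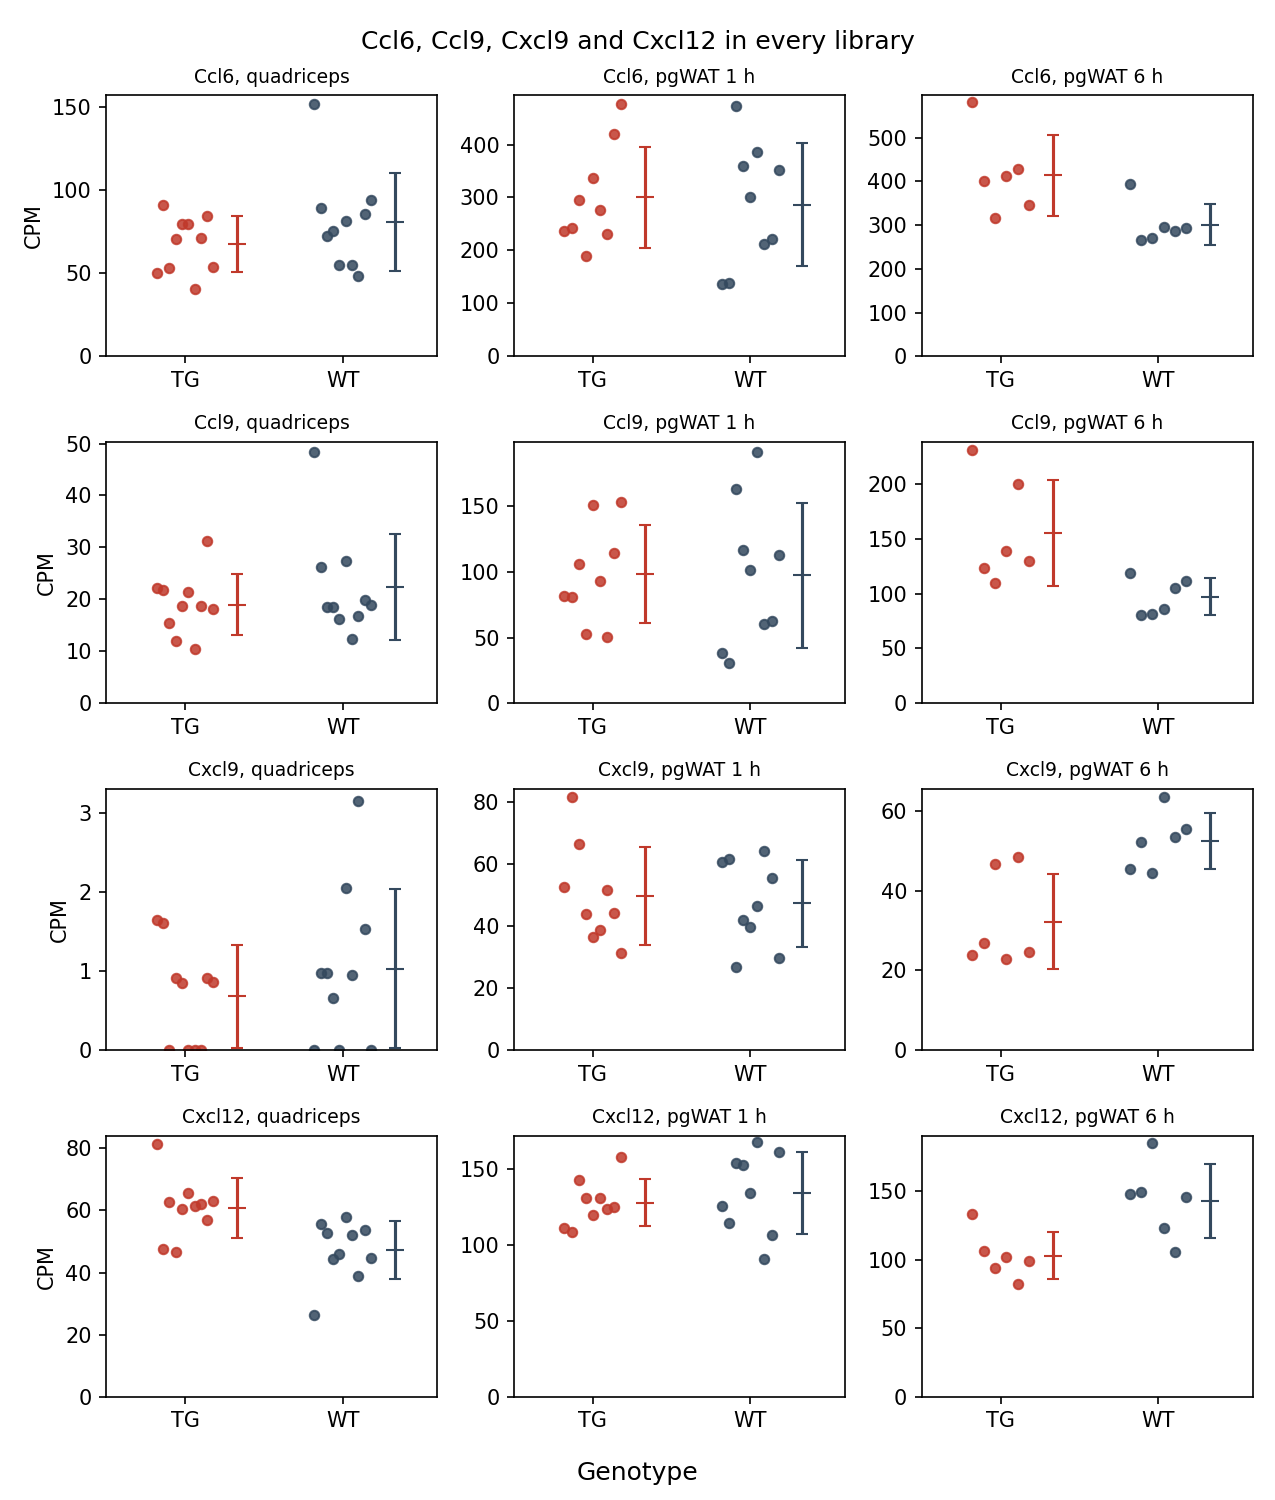
CPM of Ccl6, Ccl9, Cxcl9 and Cxcl12 in every library of the 3 sets, TG left of WT; points are libraries, and the bars beside them are mean ± SD, with an axis of its own for each panel. At 6 h TG had the higher mean of Ccl6 (413 CPM against 301 CPM in WT) and Ccl9 and the lower mean of Cxcl9 and Cxcl12, with overlap in every panel.

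The start regions of these 4 genes are shown because they are the ligands that passed at 6 h, in RefSeq's window of 250 bases before to 50 after the annotated start (build GRCm38.p6, 5′ to 3′ on the gene's strand). Capitals mark matches on either strand to the TATA box TATAAA or the NF-κB consensus; the matches to the different motifs do not overlap.
Ccl6, chr11:83593038-83593337, minus strand: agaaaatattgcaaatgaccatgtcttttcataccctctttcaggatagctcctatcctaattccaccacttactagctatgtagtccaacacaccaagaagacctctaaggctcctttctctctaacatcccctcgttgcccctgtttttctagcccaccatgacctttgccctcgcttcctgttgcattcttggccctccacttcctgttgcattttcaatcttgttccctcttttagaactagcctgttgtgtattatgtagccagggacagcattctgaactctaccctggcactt
Ccl9, chr11:83578587-83578886, minus strand: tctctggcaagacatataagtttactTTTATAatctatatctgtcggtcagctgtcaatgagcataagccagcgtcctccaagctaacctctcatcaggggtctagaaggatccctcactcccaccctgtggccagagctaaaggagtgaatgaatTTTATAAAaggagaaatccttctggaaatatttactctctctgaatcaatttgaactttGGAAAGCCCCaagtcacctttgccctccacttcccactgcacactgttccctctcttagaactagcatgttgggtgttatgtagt
Cxcl9, chr5:92328030-92328329, minus strand: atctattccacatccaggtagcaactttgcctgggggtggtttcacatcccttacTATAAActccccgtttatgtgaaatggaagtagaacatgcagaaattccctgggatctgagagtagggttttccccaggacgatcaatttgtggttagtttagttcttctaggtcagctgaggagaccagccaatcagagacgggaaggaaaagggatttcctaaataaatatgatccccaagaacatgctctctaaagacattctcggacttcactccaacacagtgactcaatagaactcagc
Cxcl12, chr6:117168285-117168584, plus strand: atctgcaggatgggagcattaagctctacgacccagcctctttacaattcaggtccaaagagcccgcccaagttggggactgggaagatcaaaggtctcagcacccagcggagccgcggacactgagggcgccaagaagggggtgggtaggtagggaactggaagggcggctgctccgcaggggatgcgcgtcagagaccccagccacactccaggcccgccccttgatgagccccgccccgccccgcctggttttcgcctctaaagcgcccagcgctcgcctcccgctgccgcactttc
Ccl9 holds 3 TATAAA matches, 2 of them overlapping, 94 and 92 bases before the start, and 1 NF-κB consensus match 35 bases before the start. Cxcl9 holds 1 TATAAA match, and Ccl6 and Cxcl12 hold no match to either motif. RefSeq windows were matched for 28 of the 39 ligands. The NF-κB consensus was in 7 of these 28 (Ccl9, Ccl20, Ccl27a, Cxcl1, Cxcl2, Cxcl3 and Cxcl10), against 4.51% of 32851 windows of the same length. TATAAA was in 10 of the 28, against 13.6%. The gamma-activated site TTCNNNGAA was in 2 (Ccl17 and Cxcl14), against 8.30%, and the interferon-stimulated response element, GAAA and GAAA 2 bases apart, in 3 (Ccl19, Cxcl10 and Cxcl14), against 3.44%. The glucocorticoid response element, AGAACA and TGTTCT 3 bases apart, was in none of the 28 and in 0.00913% of all windows. Both strands of each window were searched, and a match describes letters only.

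The other ligands at 6 h are given by receptor, and none of them passed in the main edgeR fit. In DESeq2 Cxcl13 and Cxcl16 passed as well, both lower in TG. Among the other inflammatory CC ligands, Ccl5, which T and NK cells make, had 9.25 ± 5.24 CPM in TG and 11.7 ± 2.88 CPM in WT (log2 change -0.34, SE 0.33). Ccl3 and Ccl4 were not tested, with 85 and 42 summed counts in TG and 25 and 29 in WT. Of the 85 counts of Ccl3 in TG, 67 came from TG library 5.

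Ccl2 and Ccl7, monocyte chemoattractants that bind CCR2, were split among the TG libraries at 6 h. Ccl2 was 1.93 to 3.07 CPM in TG libraries 2, 3, 4 and 6, below every WT library, but 17.7 CPM in TG library 1 and 59.7 CPM in TG library 5, against 7.12 to 33.03 CPM in WT with a median of 16.0 CPM. Ccl7 was 0.706 to 1.61 CPM in the same 4 TG libraries, 6.68 CPM in TG library 1 and 33.6 CPM in TG library 5, against 4.34 to 28.4 CPM in WT. So TG held both the lowest and the highest libraries for each gene. The log2 changes were -0.38 (SE 0.89) for Ccl2, -0.91 (SE 0.92) for Ccl7, -0.83 (SE 0.82) for Ccl12 and -0.22 (SE 0.53) for Ccl8, with adjusted p of 0.831, 0.591, 0.578 and 0.832.

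TG library 5 decided the values of Ccl2, Ccl7 and Ccl12. Without it Ccl7 changed by -2.66 (SE 0.66, adjusted p = 0.0251) and Ccl12 by -2.16 (SE 0.65, adjusted p = 0.0449), both past the threshold, as did the eotaxin Ccl24 by -0.89 (SE 0.21, adjusted p = 0.0115). Ccl2 changed by -1.81 (SE 0.70, adjusted p = 0.136), while Ccl8 stayed close to its value with all libraries, at -0.29 (SE 0.58). Cxcl9 passed as well, at -0.86 (SE 0.18, adjusted p = 0.0057), whereas Ccl6, Ccl9 and Cxcl12 did not pass without that library, with adjusted p of 0.0688, 0.0675 and 0.0518. That library was the highest of the 12 in inducible heat shock transcripts, at 86.9 CPM against 62.4 CPM in the next, and in endothelial markers, at 1255 CPM against 1093 CPM in the next. Its neutrophil and monocyte markers summed to 50.8 CPM and its macrophage markers to 1678 CPM, against 32.0 to 72.8 CPM and 1341 to 1831 CPM in WT. The part of these in its ligand levels was not tested.

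**Figure D3:**
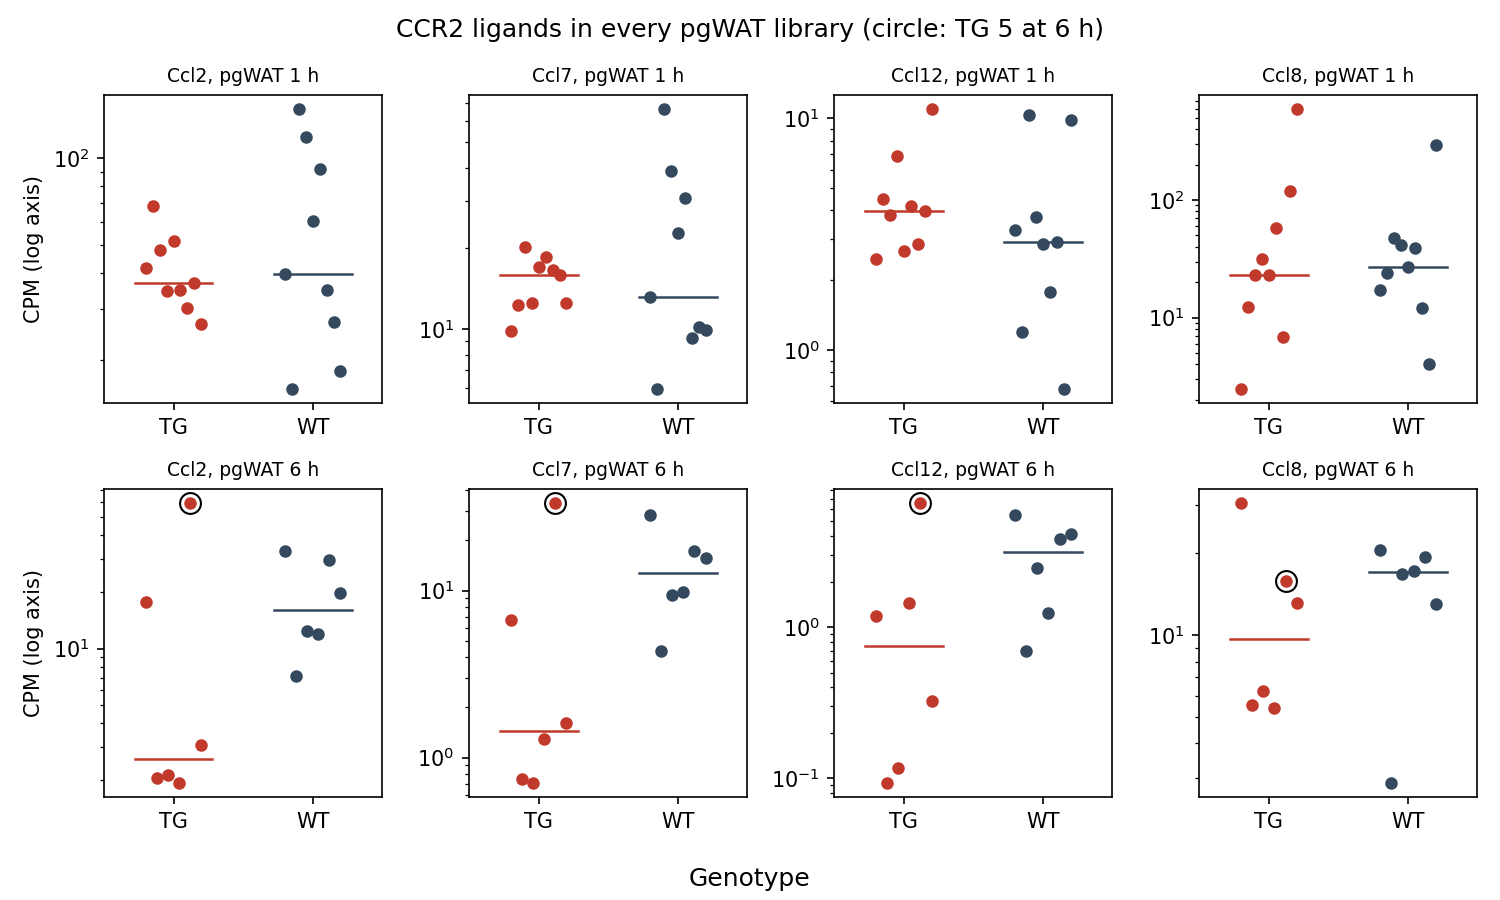
CPM on a log axis of Ccl2, Ccl7, Ccl12 and Ccl8, grouped here as CCR2 ligands, in every pgWAT library at 1 h and 6 h, TG left of WT, with lines at the medians and a circle on TG library 5 at 6 h. For Ccl2 at 6 h, 4 of 6 TG libraries lie at 3.07 CPM or below, under all WT libraries (7.12 CPM and above), and the circled library lies above them at 59.7 CPM.

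Ccl2 and Ccl7 are neighbouring genes, and their levels were correlated across libraries in 3 of the 4 pgWAT groups. At 6 h Pearson's r of log2(CPM + 1) was 0.988 in TG (exact permutation p = 0.00833, adjusted p = 0.0214, n = 6; Spearman's rho 0.771, exact p = 0.103, adjusted p = 0.206) and 0.969 in WT (exact p = 0.00278, adjusted p = 0.0108, n = 6; rho 0.943, exact p = 0.0167, adjusted p = 0.050). Without the 2 libraries farthest from the median Ccl2 level, r was 0.651 in TG and 0.960 in WT, so that the relation in TG rests on those libraries. At 1 h r was 0.00211 in TG (exact p = 0.996, adjusted p = 0.996, n = 9; rho 0.0333, exact p = 0.948, adjusted p = 0.981; 0.216 without 2 libraries) and 0.968 in WT (exact p = 1.93e-05, adjusted p = 0.000347, n = 9; rho 0.950, exact p = 0.000353, adjusted p = 0.00212; 0.942 without 2 libraries). The tests are two-sided, and the adjustment covers 18 relations between 4 gene pairs chosen after their values were seen.

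Ccl6 and Ccl9, also neighbouring genes, were correlated at 1 h, with r of 0.872 in TG (exact permutation p = 0.00301, adjusted p = 0.0108; rho 0.950, exact p = 0.000353, adjusted p = 0.00212; n = 9) and 0.973 in WT (exact p = 0.000118, adjusted p = 0.00107; rho 0.967, exact p = 0.000165, adjusted p = 0.00212; n = 9), and r of 0.920 and 0.940 without 2 libraries each. At 6 h r was 0.882 in TG (exact p = 0.00833, adjusted p = 0.0214; rho 0.943, exact p = 0.0167, adjusted p = 0.050; 0.587 without 2 libraries; n = 6) and 0.748 in WT (exact p = 0.0236, adjusted p = 0.0531; rho 0.829, exact p = 0.0583, adjusted p = 0.150; 0.496 without 2 libraries; n = 6), so that the 6 h relations rest in part on those libraries. In quadriceps r was 0.589 in TG (permutation p = 0.0759, adjusted p = 0.152; rho 0.564, p = 0.0967, adjusted p = 0.206; 0.530 without 2 libraries; n = 10) and 0.868 in WT (permutation p = 0.00142, adjusted p = 0.00852; rho 0.851, p = 0.00278, adjusted p = 0.0125; 0.746 without 2 libraries; n = 10). Cxcl9 with Cxcl10, and Ccl19 with Ccl21a, gave adjusted p from 0.170 to 0.906 over the 8 relations in pgWAT.

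Of the eotaxins, Ccl24 had 12.7 ± 4.84 CPM in TG and 20.1 ± 7.23 CPM in WT at 6 h (log2 change -0.65, SE 0.26, adjusted p = 0.120), and Ccl11 differed little (-0.10, SE 0.13). The CCR4 ligand Ccl17, which dendritic cells make, had the highest log2 change of the ligands, 1.66 (SE 0.62, adjusted p = 0.0997). It ran from 2.06 to 11.3 CPM in TG and from 0.283 to 5.40 CPM in WT, where library 6 held the 5.40 CPM and the other 5 had 1.54 CPM or less. Without WT library 6 it passed, at 2.55 (adjusted p = 0.0031). Without TG library 5, which held the 11.3 CPM, it fell to 1.27 (adjusted p = 0.202). Its neighbour Ccl22, the other CCR4 ligand, changed by -0.11 (SE 0.48). Among the CCR7 ligands, Ccl19 changed by -0.97 (SE 0.50) and Ccl21a by 0.32 (SE 0.84). Of 7 dendritic cell markers, all tested, Zbtb46, Cd209a and Siglech passed as lower in TG and none as higher, against 7.54% and 6.88% of all genes. The log2 change was above 0 for 2 of the 7, with a median of -0.43. These markers summed to 41.95 to 73.9 CPM in TG and 57.9 to 72.9 CPM in WT, and their part in the ligand values was not tested.

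Neutrophil attractants were low. Cxcl1 had 0.353 to 3.11 CPM in 5 TG libraries and 23.4 CPM in TG library 5, against 1.81 to 10.0 CPM in WT, and its log2 change of 0.33 (SE 0.96) turned to -1.61 (SE 0.56, adjusted p = 0.0827) without that library. Cxcl2 did likewise, at 0.42 (SE 0.70), and -0.33 (SE 0.62) without it. Cxcl5 was not tested, with 38 summed counts in TG and 74 in WT, and Cxcl3 had 12 in TG and 9 in WT. The neutrophil and monocyte markers summed to 32.4 to 106 CPM in TG and 32.0 to 72.8 CPM in WT, with 9 of 10 detected and Ly6g at 0 counts. Of these markers 7 were tested and 0 passed, against 14.4% of all genes. The log2 change was above 0 for 1 of the 7, with a median of -0.78. Cxcr2, the receptor of these ligands on neutrophils, had 10 counts in TG library 5 and 10 in WT library 1, the libraries with the most Cxcl1 in each genotype, and at most 2 in any other. The part of these cells in the values was not tested.

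Of the CXCR3 ligands beside Cxcl9, Cxcl10 averaged 1.06 ± 0.852 CPM in TG and 2.78 ± 2.01 CPM in WT (log2 change -1.42, SE 0.60, adjusted p = 0.140), below the WT mean in 6 of 6 TG libraries, and Cxcl11 had 3 counts in TG and 0 in WT. Cxcl13, the B cell attractant, had the lowest log2 change, -2.66 (SE 0.97, adjusted p = 0.104), with 1.28 to 6.81 CPM in TG and 2.29 to 109 CPM in WT, where library 1 alone held the 109 CPM. Without WT library 1 the change was -1.25. Of 10 B cell markers 5 were tested, and of those Cd22 and Jchain passed as lower and none as higher, where 7.54% of all genes passed as lower. The 10 summed to 551 to 826 CPM in TG and 396 to 1036 CPM in WT, and their part in the Cxcl13 value was not tested. Cxcl14 changed by 0.71 (SE 0.27, adjusted p = 0.0990), higher than the WT mean in 5 of 6 TG libraries, and passed without TG library 4 (adjusted p = 0.0283). The membrane-tethered Cxcl16, the CXCR6 ligand, had 12.4 ± 3.73 CPM in TG and 19.2 ± 5.73 CPM in WT (-0.63, SE 0.22, adjusted p = 0.0780), and passed without TG library 1 or WT library 2 (lowest adjusted p = 0.0174). Cx3cl1, the other membrane-tethered ligand, changed by 0.19 (SE 0.34), Ccl25 by -0.02 (SE 0.18) and Ccl27a by -0.35 (SE 0.17).

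**Figure D4:**
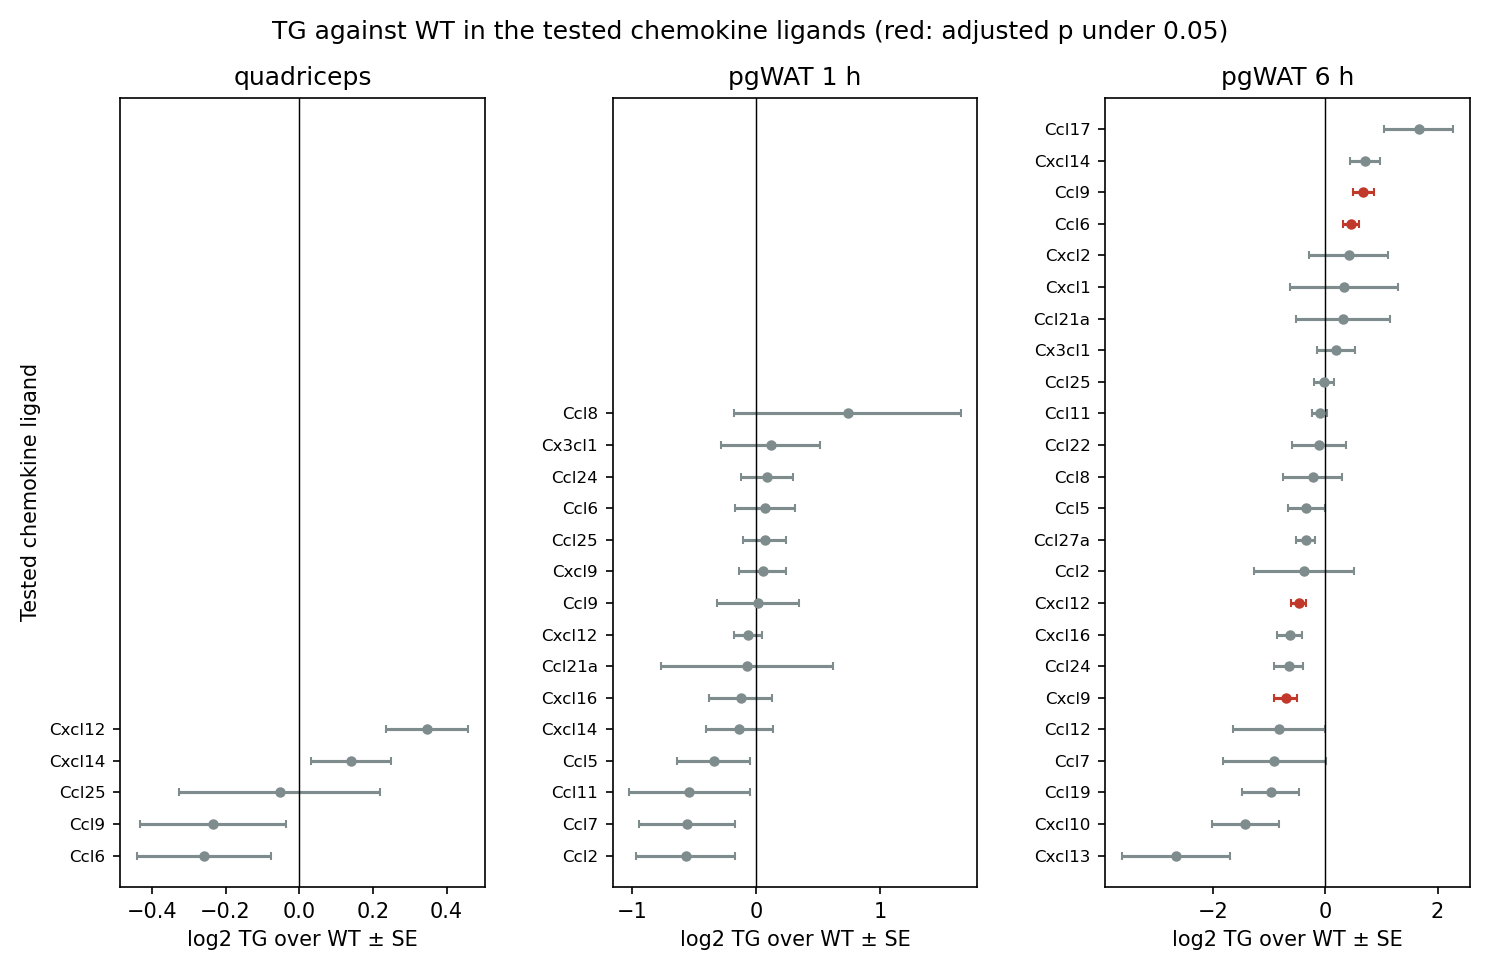
Log2 change of TG over WT with its SE for each tested chemokine ligand in quadriceps, pgWAT 1 h and pgWAT 6 h, ordered by size, with red for adjusted p under 0.05 and an axis of its own for each set. Only at 6 h are there red points, Ccl9 (0.68) and Ccl6 (0.46) to the right of 0 and Cxcl12 (-0.47) and Cxcl9 (-0.71) to the left.

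One hour after CNO no ligand passed in pgWAT. Of 15 tested, 0 passed in edgeR and in DESeq2, 0 had unadjusted p under 0.05 and all had an adjusted p of 1.00, where 0.0722% of all 11087 tested genes passed (0.0541% higher, 0.018% lower) and 4.62% had unadjusted p under 0.05. The groups' ranges did not overlap for 0 of the 15, against 0.0361% of all genes. The median log2 change was -0.07 over the 15 and 0.0086 over all genes. The 4 genes that passed at 6 h had at 1 h log2 changes of 0.07 (SE 0.24) for Ccl6, 0.02 (SE 0.33) for Ccl9, 0.05 (SE 0.19) for Cxcl9 and -0.07 (SE 0.11) for Cxcl12.

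Cxcl12 had 128 ± 15.5 CPM in TG and 134 ± 26.9 CPM in WT at 1 h, and Ccl9 had 98.2 ± 37.3 CPM in TG and 97.4 ± 55.1 CPM in WT. Ccl2 ran from 26.7 to 68.3 CPM in TG with a median of 37.1 CPM, against 15.9 to 148 CPM in WT with a median of 39.8 CPM (-0.57, SE 0.40). The WT libraries thus lay on both sides of all TG libraries. Ccl7 changed by -0.55 (SE 0.39), Ccl11 by -0.54 (SE 0.49) and Ccl5 by -0.34 (SE 0.29). Ccl8, grouped here with the CCR2 ligands, ran from 2.46 to 595 CPM in TG with a median of 23.2 CPM, and from 4.06 to 291 CPM in WT with a median of 26.7 CPM. Library 9 of each genotype held the highest value, and without TG library 9 the log2 change of Ccl8, 0.74 (SE 0.91), turned to -0.59. Duct epithelium transcripts were high in WT library 9 (244 CPM) but not in TG library 9 (43.9 CPM). TG libraries 4 and 6, with 317 and 272 CPM of these, had 31.4 and 57.7 CPM of Ccl8. Fibroblast and progenitor markers were highest in library 9 of each genotype, at 8617 CPM in TG (median 3442 CPM) and 5362 CPM in WT (median 3368 CPM). The part of either list in Ccl8 was not tested.

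The remaining tested ligands at 1 h, Ccl21a, Ccl24, Ccl25, Cx3cl1, Cxcl14 and Cxcl16, changed by between -0.13 and 0.12 with SE from 0.17 to 0.69. Untested ligands with over 100 summed counts were Cxcl13 (297 in TG, 231 in WT), Cxcl1 (95 and 142), Cxcl10 (93 and 97), Ccl12 (80 and 80) and Ccl27a (64 and 89). An interaction term asked whether the TG change at 6 h differed from that at 1 h. None of 20 ligands passed in edgeR (6 with unadjusted p under 0.05, smallest adjusted p 0.170), against 4.21% of 13022 genes, and DESeq2 called 1, Ccl17, which was not among the 20 that passed the count filter of edgeR.

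In quadriceps of clamped mice no ligand passed either. Of 5 tested, 0 passed in edgeR and in DESeq2, and 1 had unadjusted p under 0.05, against 2.03% of 8070 genes passing (1.09% higher, 0.942% lower) and 11.7% with unadjusted p under 0.05. The groups' ranges did not overlap for 0 of the 5, against 0.297% of all genes. That ligand was Cxcl12, which ran from 46.8 to 81.3 CPM in TG with a median of 61.8 CPM, against 26.4 to 57.8 CPM in WT with a median of 49.0 CPM. In TG 7 of 10 libraries lay above every WT library. The means were 60.8 ± 9.68 CPM in TG and 47.2 ± 9.40 CPM in WT, a log2 change of 0.35 (SE 0.11, unadjusted p = 0.00384, adjusted p = 0.115 from edgeR). It did not pass under any alternative setting or without any library (adjusted p 0.0647 to 0.243).

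Cxcl14 changed by 0.14 (SE 0.11) in quadriceps. The CCR1 ligands were lower on average, Ccl6 at 67.5 ± 17.0 CPM in TG and 80.9 ± 29.5 CPM in WT (-0.26, SE 0.18), and Ccl9 at 18.98 ± 5.86 CPM in TG and 22.3 ± 10.2 CPM in WT (-0.24, SE 0.20), both within the spread. Ccl25 changed by -0.05 (SE 0.27). The macrophage markers in quadriceps summed to 218 to 373 CPM in TG and 232 to 386 CPM in WT. Untested ligands with over 100 summed counts were Ccl11 (126 in TG, 118 in WT), Ccl8 (77 and 49), Cxcl13 (64 and 53) and Ccl27a (56 and 45).

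Cxcl12 differed in its TG change between the tissues. Its log2 change was -0.47 in pgWAT at 6 h and 0.35 in quadriceps, and the interaction, 6 h minus quadriceps, was -0.84 (SE 0.17, adjusted p = 0.0011 from edgeR), the 1 called of 16 ligands tested, against 5.06% of 10729 genes. Under other scaling, no filter and DESeq2 its adjusted p stayed between 0.00046 and 0.00126, and DESeq2 also called Ccl9 and Cxcl13. It was not refitted without single libraries. Tissue, clamp, kit and depth change together between the sets and cannot be told apart.

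The receptors complete the pathway. Of 24 chemokine receptor genes, 2 were tested in quadriceps, 8 in pgWAT at 1 h and 13 at 6 h, and none passed in the first 2 sets by edgeR or DESeq2. In each of these 2 sets 1 receptor had unadjusted p under 0.05 in edgeR, against 11.7% of all genes in quadriceps and 4.62% at 1 h. It was Ackr3, the scavenger of CXCL12. Ackr3 had 50.5 ± 11.02 CPM in TG and 40.7 ± 7.32 CPM in WT quadriceps (log2 change 0.29, SE 0.12), and 145 ± 20.3 CPM in TG and 125 ± 18.8 CPM in WT pgWAT at 1 h (0.22, SE 0.10). At 6 h it ran from 37.1 to 79.7 CPM in TG and from 36.4 to 64.1 CPM in WT, and did not pass.

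At 6 h 3 of 13 receptors passed, 23.1% of those tested, against 14.4% of all genes, 1 higher and 2 lower. Cxcr4, the signalling receptor of CXCL12, ran from 6.64 to 18.5 CPM in TG with 5 of 6 libraries at 11.9 CPM or more, against 4.08 to 8.48 CPM in WT. TG library 5, at 6.64 CPM, was the one TG library within the WT range. The means were 12.6 ± 3.78 CPM in TG and 5.82 ± 1.74 CPM in WT, a log2 change of 1.11 (SE 0.22, adjusted p = 0.00261), and it passed without each of the 12 libraries (adjusted p 0.00033 to 0.0091). At 1 h Cxcr4 had 15.2 ± 4.19 CPM in TG and 17.0 ± 3.60 CPM in WT (-0.18, SE 0.17).

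Cxcr6, the receptor of Cxcl16 on T and NK cells, had 2.32 ± 1.04 CPM in TG and 4.47 ± 1.30 CPM in WT (-0.94, SE 0.29, adjusted p = 0.0398). Cxcr6 did not pass without WT library 1, 2, 3 or 4 or TG library 2, 3, 4 or 6 (adjusted p 0.0570 to 0.0889). Cx3cr1, the receptor of Cx3cl1, had 3.07 ± 2.04 CPM in TG and 7.12 ± 3.68 CPM in WT (-1.21, SE 0.42, adjusted p = 0.0755), and the scavenger Ackr4 7.70 ± 4.17 CPM in TG and 4.16 ± 2.02 CPM in WT (0.90, SE 0.36, adjusted p = 0.119). The part of the T and NK cell, dendritic and macrophage markers given above in these receptor values was not tested.

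**Figure D5:**
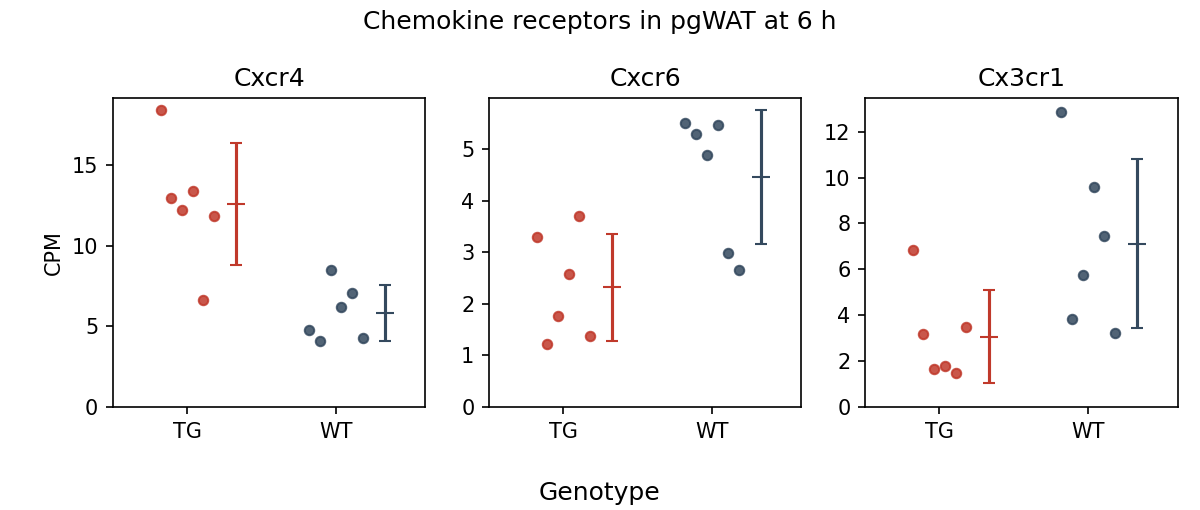
CPM of Cxcr4, Cxcr6 and Cx3cr1 in every pgWAT library at 6 h, TG left of WT; points are libraries, and the bars beside them are mean ± SD. Cxcr4 had the higher mean in TG (12.6 CPM against 5.82 CPM in WT), and Cxcr6 and Cx3cr1 the lower.

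Of 12 cytokines known to induce chemokines, 1, 2 and 2 were tested in quadriceps, pgWAT at 1 h and pgWAT at 6 h, and none passed in edgeR (Il18 had unadjusted p under 0.05 at 6 h). Il18, a macrophage cytokine, had 9.03 ± 2.51 CPM in TG and 12.1 ± 2.83 CPM in WT at 6 h (log2 change -0.42, SE 0.19, adjusted p = 0.156), and Il33 5.76 ± 1.59 CPM in TG and 6.01 ± 1.85 CPM in WT. The platelet chemokines Pf4 and Ppbp, whose symbols the rule does not take, did not pass at 6 h either (-0.31, SE 0.18, and 0.42, SE 0.27).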

How the data were processed

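Gene counts of 50 libraries were used as the authors deposited them, as raw counts per gene that were not normalized. STAR 2.7.10, cutadapt 1.18, UMI-tools 1.1.2 and bcl2fastq 2.20.0.422 are named, per the submitters' processing notes, as are builds GRCm39 and GRCm38; the counting program, annotation, strand setting and whether molecular identifiers were collapsed are not given in the sources used here. Rows that name no gene (5 in the quadriceps and 1 h tables, 121 at 6 h) were left out, and gene rows took a mean of 74.9%, 65.3% and 99.8% of the counts. TG replicate 10 of quadriceps carries a 1 h treatment label and a title that says clamped; the title was followed.

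Each set was fitted on its own with edgeR 4.0.16 in R 4.3.3 (filterByExpr by genotype, TMM, robust quasi-likelihood F test, Benjamini-Hochberg over all tested genes, threshold 0.05), and the script was tested on simulated data. SE is the log2 change over the root of F. DESeq2 1.42.0, other filters and scalings, a replicate block and leaving out libraries were alternatives. All ligands past the threshold were named in full, tested ligands by level or smallest p, and the rest by counts. The members and lists were chosen with earlier results of these data known. The values of 1 receptor that counts among those tested and passing at 6 h are not reported here.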

Additional observations from a re-analysis of the deposited data

Results flagged for a closer look

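Of 88 groups of 6, 9 or 10 libraries examined over the tested ligands, 23 had a library that stood apart from the others. The cut-off flags about 1 in 20 groups of normally distributed values. CPM need not be normal, and ligands of the same library are not independent, so 23 of 88 is no test against that rate. The flags lay in few libraries. In pgWAT at 6 h, TG library 5 stood high in 6 ligands, with 59.7 CPM of Ccl2, 33.6 CPM of Ccl7, 6.64 CPM of Ccl12, 11.3 CPM of Ccl17, 22.3 CPM of Ccl24 and 23.4 CPM of Cxcl1. WT library 6 stood high in Ccl17 (5.40 CPM), Ccl19 (6.22 CPM), Ccl21a (64.1 CPM) and Ccl22 (2.74 CPM), and WT library 1 in Ccl6 (393 CPM), Cxcl1 (10.0 CPM) and Cxcl13 (109 CPM).

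In pgWAT at 1 h, TG library 9 had 595 CPM of Ccl8. WT library 9 stood high in 6 ligands, with 291 CPM of Ccl8, 43.8 CPM of Ccl21a, 20.4 CPM of Ccl5, 23.7 CPM of Cx3cl1, 27 CPM of Cxcl14 and 41.8 CPM of Cxcl16, and WT library 3 had 44.0 CPM of Ccl24. WT library 9 is among the libraries in doubt, with 244 CPM of duct epithelium transcripts against a median of 15.97 CPM over the set. The others in doubt for these transcripts, TG libraries 4 (317 CPM) and 6 (272 CPM), had 15.4 and 16.45 CPM of Cx3cl1. Their Ccl28 was 9.12 and 7.70 CPM, against 7.24 CPM in WT library 9. WT library 2 had 5.96 CPM of Ccl28. That library is not among those in doubt, but it came next in duct epithelium transcripts, at 118.8 CPM. The remaining libraries of the set had at most 43.9 CPM of these transcripts and at most 0.955 CPM of Ccl28. The part of these transcripts in the values was not tested. In quadriceps, WT library 1 had 152 CPM of Ccl6 and 48.4 CPM of Ccl9. The TG change of Cxcl12 differed between pgWAT at 6 h and quadriceps by -0.84 on the log2 scale, by the test of the interaction itself.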

How the results depend on the processing

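No ligand or receptor passed in quadriceps or pgWAT at 1 h under any alternative run. The 4 ligand calls at 6 h became 0 with no filter on low counts, 2 without the library in doubt (TG library 2), 4 with RLE scaling or a mean of at least 10 counts, 6 with DESeq2 and 3 with scaling to spike-ins, an alternative chosen after seeing the data. Leaving out each library gave 1 to 4. The 3 receptor calls at 6 h became 1 without that library, 4 with DESeq2, and 1 to 4 when each library was left out. DESeq2 gave 1 ligand, untested in edgeR, in place of 0 in the interaction of 6 h with 1 h, and 3 in place of 1 in that of 6 h with quadriceps. The stricter detection limit gave 14 ligands in place of 29 in quadriceps. The cause of these differences was not tested.

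With the replicate number as a block, 5 ligands and 5 receptors passed at 6 h; among the ligands Cxcl9 was lost (adjusted p = 0.0538), and Cxcl10 (0.0420) and Cxcl16 (0.0108) were gained. The labels do not say whether the numbers pair the libraries. Same-numbered libraries correlated in their deviations from the group means by -0.18 to 0.20 in quadriceps, -0.18 to 0.37 at 1 h and -0.087 to 0.11 at 6 h. In these sets 1 of 10, 2 of 9 and 2 of 6 pairs correlated best with their own number. With so few pairs, these values cannot settle whether libraries were paired. Under the block Cxcl1 at 6 h turned to -0.93 and Ccl21a at 1 h to 0.11.

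Some small changes turned direction. Leaving out each library gave ranges of log2 change of -0.24 to 0.0675 for Ccl25 in quadriceps. At 1 h the ranges were -0.43 to 0.54 for Ccl21a, -0.0266 to 0.27 for Ccl24, -0.00072 to 0.14 for Ccl25, -0.0354 to 0.19 for Ccl6, -0.59 to 1.88 for Ccl8, -0.11 to 0.20 for Ccl9, -0.11 to 0.62 for Cx3cl1, -0.23 to 0.11 for Cxcl14, -0.26 to 0.0791 for Cxcl16 and -0.0501 to 0.12 for Cxcl9. At 6 h they were -0.0493 to 0.98 for Ccl21a, -0.45 to 0.22 for Ccl22, -0.17 to 0.0683 for Ccl25, -1.61 to 0.85 for Cxcl1 and -0.33 to 0.80 for Cxcl2. Without the libraries in doubt, Ccl21a, Ccl25 and Cxcl14 at 1 h were 0.079, -0.0721 and 0.0154, and Ccl22 at 6 h was 0.11. In quadriceps 24 detected ligands had too few counts to be tested, and at equal depth it also had the fewest ligands per library, a median of 17 against 25 at 1 h and 23.5 at 6 h.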
